A study of Mus musculus with 20 samples.

Results

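Genes of the actin and contractile cytoskeleton, given as a list by name, were looked up in the count table, and all 10 of the 10 listed genes were among its 14299 genes. They are Actb and Actg1, the cytoplasmic actins, Acta2, the smooth muscle alpha actin, the tropomyosins Tpm1 and Tpm2, and the filament-binding proteins Cald1, Tagln, Tagln2 and Cnn2, together with Myl9, a regulatory light chain of myosin II. The cells were primary mouse ovarian surface epithelial (OSE) cells, the epithelium that covers the ovary. They were kept for 48 hours without hormone and then for 15 days either with 100 nM estradiol (E2) or with ethanol alone at a final 0.0002% (control). Single cells were caught on 1 microfluidic chip whose 20 columns each gave 1 cDNA library, and 19 libraries have cells in the tables. The 10 control libraries held 30 to 36 cells each, and the 9 with E2 held 26 to 32. The strain and age of the mice that gave the cells are not given in the sources used here.

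The deposited clustering into 2 groups separates cluster 1, which the study names as unresponsive to E2, from the responsive cells. Cluster 1 held 126 control and 42 E2 cells, and the responsive cells numbered 203 control and 218 E2. Per the labels, control cells were loaded through the left inlet of the chip and E2 cells through the right, and no separate cultures are named within a condition. The effect of E2 and a difference between the cells loaded at each inlet therefore cannot be told apart, and p-values measure the spread between libraries, which may be technical. Levels are given as CPM (counts per 1e+06 reads) of the reads summed over the cells of 1 cluster in 1 library, with at least 3 cells in each sum, which left 7 of the 9 E2 libraries for cluster 1. Library totals ran from 3867709 to 5078288 reads in control and from 2693197 to 4037791 in E2. The median cell had 143230 reads among responsive control cells, 117810 among responsive E2 cells, 112130 among control cluster 1 cells and 87632 among E2 cluster 1 cells. The summed level of 8 OSE markers had a median over libraries of 6001 CPM in responsive control, 5423 in responsive E2, 5742 in control cluster 1 and 4657 in E2 cluster 1 cells. The median percent of reads on mitochondrial genes was 2.08, 2.43, 2.53 and 3.55 in the same order, and the part of these differences in the results on E2 was not tested. Single OSE markers differed between the clusters in both directions. In responsive control and control cluster 1 libraries, Krt19 had means of 414 and 25.5 CPM, and Msln of 41.9 and 336 CPM.

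Actin monomers assemble into filaments, and myosin II pulls on those filaments to give a cell its tension and shape. Tropomyosins lie along the filament and caldesmon, calponins and transgelins bind it, which sets how far myosin can engage. Acta2, Tagln and Myl9 are best known from smooth muscle and from contractile fibroblasts, while Actb, Actg1 and Tagln2 are used by most cell types. Serum response factor, which binds the CArG box, is a well known regulator of many genes of this group.

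Promoters from RefSeq on build GRCm38.p6, each running from 250 bases before to 50 bases after a gene start, matched 8 of the 10 genes, with 9 promoters in all. None matched Actb or Tagln. The CArG box, searched only as CCWWWWWWGG where W is A or T, was found in 3 of the 8, Actg1, Cnn2 and Myl9. Counted by promoter, it was in 3 of the 9 and in 1.63% of 32851 promoters of the same length. Because the regulator is already known for this gene group, the difference between these shares is no new evidence and was not tested. Stretches that differ from the box by 1 letter, as in the promoter of Acta2, were not counted. The pattern reads alike on both strands, and both were searched. It began 90 bases upstream of the start in Actg1, 56 in Cnn2 and 161 in Myl9. These stretches are shown because they are the places where the letters of a known regulator of this gene group occur, with the CArG box in capitals and 25 bases on each side, 5′ to 3′ on the strand of the gene.
Actg1, chr11:120348551-120348610, minus strand: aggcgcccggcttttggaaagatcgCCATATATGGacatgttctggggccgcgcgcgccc
Cnn2, chr10:79988519-79988578, plus strand: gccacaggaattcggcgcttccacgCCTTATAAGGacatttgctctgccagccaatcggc
Myl9, chr2:156775278-156775337, plus strand: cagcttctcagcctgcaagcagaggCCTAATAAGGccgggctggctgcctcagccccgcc
The palindromic estrogen response element, GGTCANNNTGACC, was in none of the 9 promoters and in 0.0700% of all. The letters TATAAA were in 1 of the 9, a promoter of Cald1, and in 13.6% of all. Such a match is a description of letters in a window and was not tested against binding.

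Actb, which encodes beta actin, was lower in E2 than in control cells. Among responsive cells its level was 2484 ± 232 CPM (SD, n = 10) in control and 1812 ± 216 CPM (SD, n = 9) in E2 libraries. The control libraries ran from 2169 to 2930 CPM with a median of 2462, and the E2 libraries from 1468 to 2114 with a median of 1842. All 9 E2 libraries were therefore below all 10 control libraries, an order found for 0.175% of the 10265 genes tested. The log2 fold change was −0.45 (SE 0.095) with an adjusted p of 0.00973 by edgeR's quasi-likelihood test, but it did not reach the log2 fold change of 0.5 that a call also needs. Of the genes tested in responsive cells 1.37% were called, 0.848% as higher and 0.526% as lower in E2, and none of the 7 listed genes in the fit was among them.

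In cluster 1 cells the level of Actb was 2832 ± 391 CPM (SD, n = 10) in control and 1585 ± 630 CPM (SD, n = 7) in E2 libraries. The control libraries ran from 2266 to 3433 CPM with a median of 2741, and the E2 libraries from 447 to 2342 with a median of 1625. On this TMM-scaled level, Actb was below every control library in 6 of the 7 E2 libraries. The lowest value came from the library of column 15, which had 3 cluster 1 cells. The log2 fold change was −0.78 (SE 0.21), with an adjusted p of 0.205 by the same edgeR test, so it was not called. Calls were rare among cluster 1 cells, at 0.0839% of 8340 genes, with 622 genes at an unadjusted p under 0.05. The difference between the E2 changes in the 2 clusters was −0.38 (SE 0.22) for Actb with an adjusted p of 0.556 by edgeR, and 0.184% of 11398 genes were called in that test. With the library as a block it was −0.45 (SE 0.23, adjusted p = 0.646 by edgeR), and 0 genes were called, with 902 at an unadjusted p under 0.05.

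Over all cells together Actb fell by 0.51 on the log2 scale (SE 0.090, adjusted p = 0.00155 by edgeR), from 2528 ± 218 CPM (SD, n = 10) to 1766 ± 204 CPM (SD, n = 9). The 9 E2 libraries, at 1447 to 2080 CPM, again lay below the 10 control libraries, at 2310 to 2891 CPM, as for 0.101% of 10945 genes. Here 1.62% of the genes were called, 1.13% as higher and 0.484% as lower. The value lies close to the fold threshold, and it was −0.49 with DESeq2 and with relative log expression factors, which is under the threshold although the adjusted p stayed below 0.05. Without control columns 2, 4 or 5 or E2 columns 15, 19 or 20 it was also under the threshold, at −0.47 to −0.49. The cell makeup moved with the condition, since cluster 1 made up 38.1% ± 9.57 (SD, n = 10) of the cells of a control library and 16.5% ± 9.22 (SD, n = 9) of an E2 library.

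Part of the Actb sequence is shared with other genes. Of the 31-base words of its transcript, 35.1% also occur in transcripts of other genes, led by Lrrc58, and 26.2% of those in its last 500 bases do. Of the Actb values above 0, 97.3% were not whole numbers, against 33.1% over all genes. Kallisto divides reads that match several transcripts. The Cald1 transcript shared no such word with other genes, and 67.4% of its values were not whole. The part of shared sequence in these percentages was not tested. Lrrc58 was at 135 ± 35.4 CPM (SD, n = 10) in responsive control and 178 ± 56.0 CPM (SD, n = 9) in responsive E2 libraries. The sum of Actb and Lrrc58 ran from 2276 to 3062 CPM in responsive control and from 1687 to 2244 CPM in responsive E2 libraries, so the summed groups did not overlap either.

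Actg1, the gene of gamma actin, the other cytoplasmic actin, was not called in either cluster. Among responsive cells it was at 2044 ± 267 CPM (SD, n = 10) in control and 1951 ± 383 CPM (SD, n = 9) in E2 libraries. The log2 fold change was −0.06 (SE 0.11), with an adjusted p of 0.929 by edgeR, and the libraries of the conditions overlapped. In cluster 1 it was at 1577 ± 358 CPM (SD, n = 10) and 1570 ± 475 CPM (SD, n = 7), with a log2 fold change of 0.05 (SE 0.18, adjusted p = 0.987 by edgeR). Of the 31-base words of Actg1, 57.1% occur in other genes, led by Gm12715, but none of those in its last 500 bases, which a protocol that reads the 3′ end favours. Even so, 87.1% of the Actg1 values above 0 were not whole numbers. Within a library, the ratio of Actb to Actg1 averaged 1.24 ± 0.27 (SD, n = 10) for responsive control cells and 0.96 ± 0.21 (SD, n = 9) for responsive cells with E2. In cluster 1 control libraries had a ratio of 1.89 ± 0.56 (SD, n = 10), and the E2 libraries one of 1.02 ± 0.36 (SD, n = 7).

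**Figure D1:**
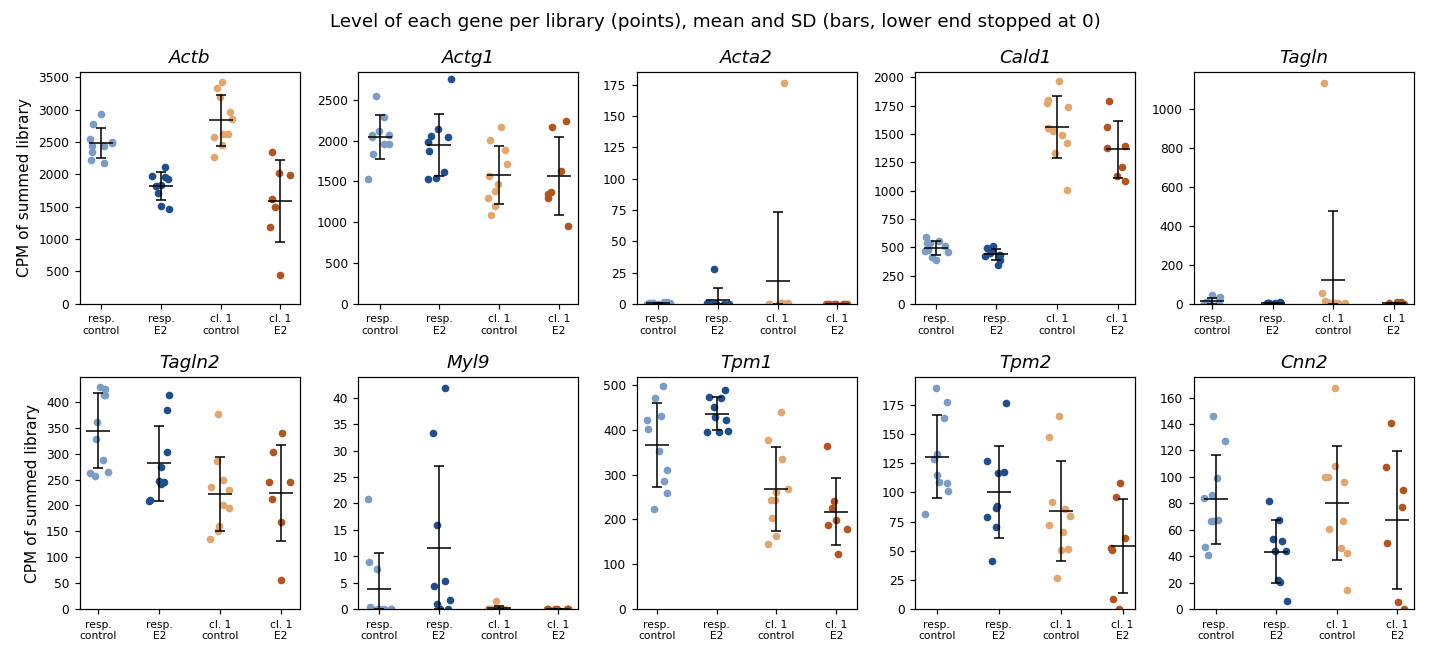
Level of each of the 10 genes in CPM (linear axis from 0, own scale in each panel) for responsive and cluster 1 cells of control and E2 libraries. Points are libraries and bars the mean and SD. The 9 responsive E2 libraries of Actb lie at 1468 to 2114 CPM, under all 10 responsive control libraries, and a single control library of cluster 1 sets the means of Acta2 and Tagln.

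Cald1 encodes caldesmon, which binds actin and myosin and restrains their interaction. Its level was higher in cluster 1 than in responsive cells in all 17 libraries that had both. In control libraries cluster 1 had 1562 ± 275 CPM (SD, n = 10) and the responsive cells had 492 ± 64.4 CPM (SD, n = 10). With E2 these levels were 1366 ± 251 CPM (SD, n = 7) and 436 ± 52.5 CPM (SD, n = 9). The lowest cluster 1 library, at 1006 CPM, was above the highest responsive library, at 588 CPM. The log2 difference was 1.71 (SE 0.09), and within a library it ran from 1.14 to 2.19 on the log2(CPM + 10) scale. The SE of this and the other differences between clusters takes the 2 sums of a library as independent. Because these same cells defined the clusters, no test is given for a difference between them. Of 11398 genes, 0.404% were more than 0.5 higher on the log2 scale and higher in each of the 17 libraries, and 2.31% were lower by the same rule, and Cald1 was the only listed gene that met it in either direction. The summed level of 5 stromal fibroblast markers was also higher in cluster 1, at 2653 to 4347 CPM in control against 1674 to 2243 CPM in responsive control libraries. Of the 5, Col1a2 differed most, with means of 1874 CPM in control cluster 1 and 14.9 CPM in responsive control libraries. Dcn was at 1393 and 1265 CPM in the same groups. Col1a1, Col3a1 and Pdgfra had lower means in cluster 1, at 77.8, 270.2 and 7.88 CPM against 197, 570 and 8.57 CPM. The part of such markers in the Cald1 difference was not tested.

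With E2, Cald1 had a log2 fold change of −0.17 (SE 0.11, adjusted p = 0.714 by edgeR) in responsive cells and of −0.13 (SE 0.16, adjusted p = 0.945 by edgeR) in cluster 1 cells. Neither was called. Over all cells it fell by 0.57 on the log2 scale (SE 0.13, adjusted p = 0.0245 by edgeR). Control libraries ran from 564 to 1145 CPM with a median of 784, and E2 libraries from 406 to 739 CPM with a median of 576, and the groups overlapped. The call was lost in 5 of the 19 fits that each left out 1 library, those without control columns 5, 7 and 8 and E2 columns 14 and 16, where the highest adjusted p was 0.0517. The share of cluster 1 cells, in which Cald1 is high, was lower too with E2. A sum over all cells does not by itself separate a change in the makeup from the changes within each cluster given above. The part of each in the fall over all cells was not tested.

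The tropomyosins Tpm1 and Tpm2, which run along the groove of the filament, were both lower in cluster 1 than in responsive cells in most libraries. Tpm1 was at 365 ± 93.9 CPM (SD, n = 10) in responsive control and 268 ± 92.7 CPM (SD, n = 10) in cluster 1 control libraries, with a log2 difference between clusters of −0.64 (SE 0.15) and a lower value in 16 of 17 libraries. Tpm2 was at 131 ± 35.4 CPM (SD, n = 10) and 83.7 ± 42.9 CPM (SD, n = 10) in the same groups, with a log2 difference of −0.70 (SE 0.28) and a lower value in 14 of 17 libraries. With E2 in responsive cells, Tpm1 had a log2 fold change of 0.26 (SE 0.14, adjusted p = 0.584 by edgeR) and Tpm2 of −0.38 (SE 0.22, adjusted p = 0.619 by edgeR). The 9 responsive E2 libraries of Tpm1 were all above the control median of 377 CPM, at 395 to 489 CPM, but 5 of the 10 control libraries lay within or above that range.

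Among the calponin family, Cnn2 (calponin 2, a stabilizer of filaments under tension) and Tagln2 (transgelin 2, a relative of transgelin) were measured in most libraries. Cnn2 was at 83.0 ± 33.5 CPM (SD, n = 10) in responsive control and 43.4 ± 23.9 CPM (SD, n = 9) in responsive E2 libraries. Its log2 fold change of −0.92 (SE 0.34) was the largest in size among the 7 listed genes in that fit, but the adjusted p was 0.289 by edgeR and the conditions overlapped. The share of responsive cells with a read of Cnn2 was 53.7% in control (109 of 203 cells, exact 95% interval 46.6 to 60.7) and 33.9% in E2 (74 of 218 cells, 27.7 to 40.6). With each cell thinned to 20000 reads, these shares were 36.5% and 19.7%. Intervals of this kind take cells as independent and leave out the spread between libraries, over which the shares were 52.9% ± 10.9 (SD, n = 10) and 33.2% ± 10.4 (SD, n = 9).

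Tagln2 was at 344 ± 72.6 CPM (SD, n = 10) in responsive control and 281 ± 73.3 CPM (SD, n = 9) in responsive E2 libraries, a log2 fold change of −0.29 (SE 0.15, adjusted p = 0.582 by edgeR). Its reads were found in 92.1% of responsive control cells and 80.3% of responsive E2 cells, or in 80.8% and 68.3% at 20000 reads per cell. In cluster 1 it was at 222 ± 72.3 CPM (SD, n = 10) in control and 225 ± 93.0 CPM (SD, n = 7) in E2 libraries. Between clusters the log2 difference was −0.44 (SE 0.16), with lower values in cluster 1 in 14 of 17 libraries.

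**Figure D2:**
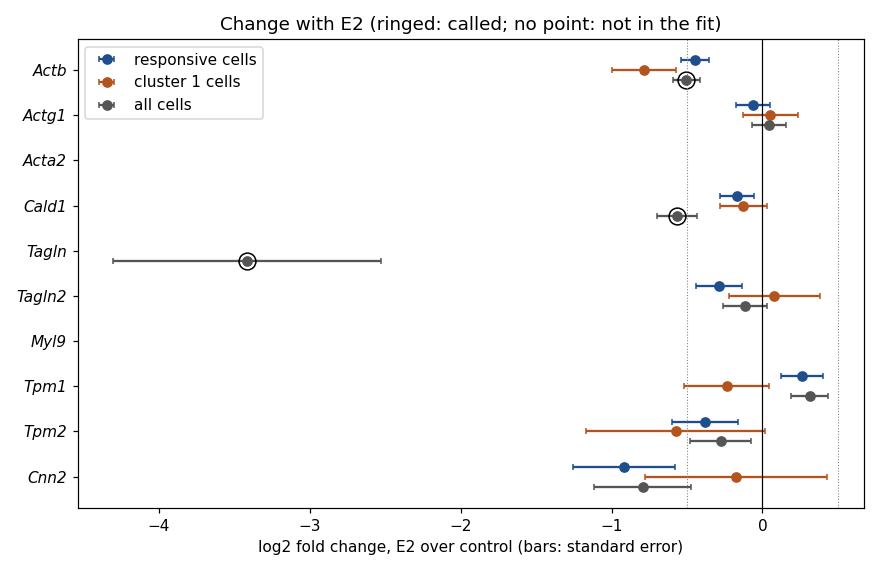
Log2 fold change of E2 over control (x axis) for each gene in responsive cells, cluster 1 cells and all cells, with standard errors from edgeR. Rings mark called genes, which are Actb, Cald1 and Tagln over all cells, and dotted lines mark the fold threshold of 0.5.

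**Figure D3:**
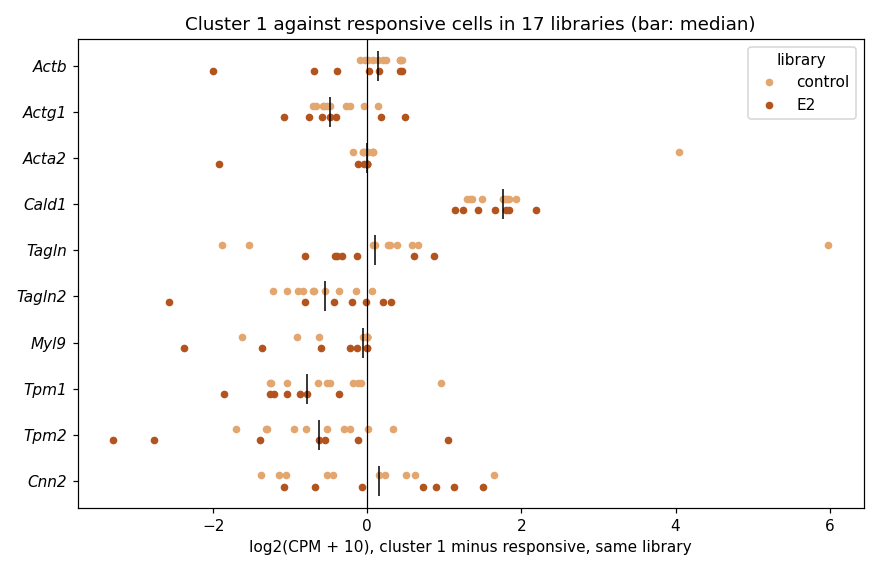
Difference of log2(CPM + 10) between cluster 1 and responsive cells of the same library (x axis) for each gene in 17 libraries, with the median as a bar. Cald1 lies at 1.14 to 2.19 in all libraries, and Tpm1 lies below 0 in 16 of 17.

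The 3 genes best known from smooth muscle, Tagln, Acta2 and Myl9, were rare. Reads of Tagln, transgelin, were found in 78 of 589 cells, those of Acta2 in 17 and those of Myl9 in 26. Reads of both Tagln and Acta2 were in 3 cells, those of Myl9 and Tagln in 3, and no cell had reads of Myl9 and Acta2. With genes this rare, few shared cells would also be found if the genes were unrelated, and the overlap was not tested. In control cluster 1, 5 of 126 cells had a read of Acta2 and 1 of 126 a read of Myl9. Neither gene had a read in the 42 E2 cluster 1 cells. There 3 counts, the limit used for a count of 0, would be 7.14% of the cells with a read or 0.802 CPM. The exact 95% interval of the share reaches 8.41%. These limits cover counting error only, since amplified reads without molecular identifiers are not independent molecules, and they do not bound the share of cells that express a gene. None of these 3 genes passed the filter on low counts in the E2 comparison within either cluster. Between clusters the log2 difference of Myl9 was −4.78 (SE 1.07). Its level was lower in cluster 1 in 9 of 17 libraries, equal in 8 and higher in 0.

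One control cluster 1 cell, of the library of column 6, held 872 of the 1005 Tagln reads of its group, or 86.8%, and 97.1% of its Acta2 reads. In that cell Tagln stood at 10657 CPM and Acta2 at 1645 CPM, against a highest value of 1200 and 9.11 CPM in the other 167 of 168 cluster 1 cells. Actb was at 8958 CPM in it, the highest of the 168 cells, where the others had a median of 2503 and a highest value of 8835 CPM. Myl6, the essential light chain of myosin II, was also highest there, at 6172 CPM, and Myl9 had no read. Ezr, the gene of the epithelial linker ezrin, was at 61.1 CPM, the lowest of the 168 cells. The OSE markers Krt7, Krt18 and Upk3b were at 86.5, 342 and 1430 CPM, at ranks 161, 117 and 117 of 168 from the highest. Of the fibroblast markers, Col1a2 was at 306 CPM (rank 161) and Dcn at 1821 CPM (rank 51). These values do not settle the type of this cell. The cell had 81821 reads and 0.802% of them on mitochondrial genes.

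Over all cells Tagln was called lower in E2, with a log2 fold change of −3.41 (SE 0.89, adjusted p = 0.0444 by edgeR). The control libraries had a lowest value of 0.988, a median of 6.97 and a highest value of 222 CPM, the last from column 6, and the E2 libraries a lowest of 0.710, a median of 2.42 and a highest of 8.61 CPM. Without the 1 cell the log2 fold change was −1.92 with an adjusted p of 0.249 by edgeR, so the call rested on it. The call was also lost in 13 of the 19 fits that each left out 1 library, and was kept only without control columns 1, 4, 5, 7 or 8 or E2 column 19. Between clusters the log2 difference of Tagln was 2.10 (SE 0.97), and it was −0.41 without that cell. The smooth muscle and pericyte markers Des and Cspg4 had no read in any cluster 1 library, and the 4 markers of that list in the table summed to at most 25.8 CPM in cluster 1. The other 5 of the 9 markers listed were not analysed here.

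The other Tagln reads also lay mostly in control cells. Of the 78 cells with a read, 17 had at least 10 reads, 15 control and 2 E2 cells, and 9 had at least 30, 8 control and 1 E2 cell, both counts including the cell of column 6. In responsive cells Tagln reads were found in 15.8% of control cells (32 of 203, exact 95% interval 11.0 to 21.5) and 8.26% of E2 cells (18 of 218, 4.97 to 12.7), and in 8.37% and 3.21% at 20000 reads per cell. Over libraries the Tagln shares were 14.9% ± 10.6 (SD, n = 10) and 8.18% ± 3.69 (SD, n = 9), which overlap. Myl9 had reads in 2.46% of responsive control cells (5 of 203, exact 95% interval 0.804 to 5.65) and 9.17% of responsive E2 cells (20 of 218, 5.69 to 13.8). Over libraries the Myl9 shares were 2.61% ± 3.63 (SD, n = 10) and 8.77% ± 8.05 (SD, n = 9), which overlap, and at 20000 reads per cell the shares over all those cells were 1.48% and 5.05%. Its level was above 0 in 4 of 10 responsive control and 7 of 9 responsive E2 libraries, and without the filter on genes its log2 fold change was 1.59 with an adjusted p of 0.789 by edgeR. Whether free RNA adds to these low shares was not tested. Of the Acta2 reads in responsive E2 cells, 96.6% came from 1 cell of column 15.

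**Figure D4:**
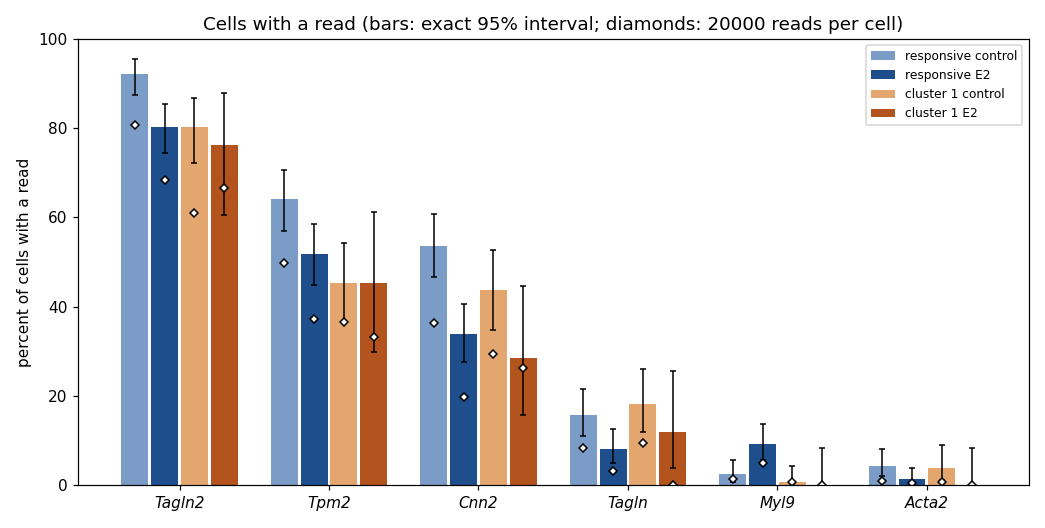
Percent of cells with at least 1 read (y axis, from 0) of 6 of the genes in responsive and cluster 1 cells of each condition, with exact 95% intervals, and the same at 20000 reads per cell as diamonds. Cnn2 was found in 53.7% of responsive control and 33.9% of responsive E2 cells. Acta2 and Myl9 were found in no E2 cluster 1 cell and in 3.97% and 0.794% of control cluster 1 cells.

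The trajectory states deposited with the cells gave a further view of the actins, in CPM of read totals without TMM scaling. Actb was at 2381 ± 293 CPM (SD, n = 10) in state 2, which held 143 control and 4 E2 cells, and at 1544 ± 297 CPM (SD, n = 9) in state 5, which held 151 E2 cells. State 4 mixed 21 control and 43 E2 cells and had Actb at 1959 ± 465 CPM (SD, n = 9). State 1, with 148 control and 41 E2 cells, had Actb at 2399 ± 769 CPM (SD, n = 17), and state 7, with 14 control cells, at 1629 ± 1071 CPM (SD, n = 2). State 3 held 3 cells and gave no sum. State 6, with 21 E2 cells, had Actb at 2442 ± 576 CPM (SD, n = 5) and Actg1 at 3147 ± 1416 CPM (SD, n = 5), where Actg1 in state 5 was at 1723 ± 300.5 CPM (SD, n = 9). Expression in these cells also defined the states, and the levels are a description.

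Across single cells the actins varied together. In 203 responsive control cells Pearson's r of log2(CPM + 10) between Actb and Actg1 was 0.52, the highest for either gene among 3480 genes found in at least 50% of those cells, and for Actb it was followed by Gapdh at 0.42 and Hnrnpa2b1 at 0.39. In responsive E2 cells r between the actins was 0.41 (n = 218 cells), in control cluster 1 cells 0.24 (n = 126 cells) and in E2 cluster 1 cells 0.37 (n = 42 cells). In control cluster 1 cells the genes most like Actb were Myl6 at 0.49, Myl12a at 0.41 and Lgals1 at 0.35, of which the first pair are light chains of myosin II. The highest r of Cald1 was 0.27 in responsive control cells (Dnaja2), where those of Tpm2, Cnn2, Tagln2 and Tpm1 were 0.29 to 0.33, and 0.31 in control cluster 1 cells (C1s1). Cells share libraries and differ in depth, and the actins share part of their sequence, which these values include.

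A wider list of 84 genes that build, regulate or bind actin filaments was read beside the 10, and 76 of them were in the table. In responsive cells 71 were in the fit, of which 1 was called higher and none lower, where 1.37% of all genes were called, and 16 were at an unadjusted p under 0.05, where 1015 of all 10265 were. Their median log2 fold change was 0.05 against 0.02 over all genes. The gene called was Cdc42, a small GTPase that directs filament assembly at the cell edge, at 240.2 ± 53.1 CPM (SD, n = 10) in control and 453 ± 246 CPM (SD, n = 9) in E2 libraries, with a log2 fold change of 0.91 (SE 0.20, adjusted p = 0.0125 by edgeR). The E2 libraries of Cdc42 had a median of 376 and a highest value of 1093 CPM, and without column 15 the log2 fold change was 0.65 (SE 0.13, adjusted p = 0.00566 by edgeR). Over all cells 2 of 72 were called higher and 1 lower, where 1.13% and 0.484% of all genes were. Cdc42 rose by 1.10 and Rock2, a kinase that activates myosin II, by 0.63 on the log2 scale (adjusted p = 0.00529 and 0.0125 by edgeR). Without column 15 the value of Cdc42 was 0.80, and with thinned cells Rock2 was not called (0.58, adjusted p = 0.0702 by edgeR). Mylk, the myosin light chain kinase, fell by 1.23 on the log2 scale (SE 0.24, adjusted p = 0.00522 by edgeR), from 96.0 ± 26.6 CPM (SD, n = 10) to 40.7 ± 19.03 CPM (SD, n = 9). In cluster 1 none of 63 was called by edgeR, with 13 at an unadjusted p under 0.05, and in the test of the difference between clusters none of 72, with 9 at an unadjusted p under 0.05.

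Between clusters, 2 of the 72 genes of the wider list were higher in cluster 1 in all 17 libraries and past the fold, Capza2 with a log2 difference of 1.12 (SE 0.21) and Myh10, a heavy chain of nonmuscle myosin II, with 1.03 (SE 0.15). Cdc42 was the 1 gene lower by the same rule, with −0.88 (SE 0.27). Of all genes 0.404% were higher and 2.31% lower by that rule. The 10 listed genes together took 0.567% ± 0.030 (SD, n = 10) of the reads of responsive control and 0.476% ± 0.043 (SD, n = 9) of responsive E2 libraries. For cluster 1 the shares were 0.723% ± 0.077 (SD, n = 10) without and 0.544% ± 0.136 (SD, n = 7) with E2.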

How the data were processed

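Estimated counts for each gene in each cell were deposited by the authors without normalization, from kallisto 0.44.0 on GRCm38 per the submitters' processing notes, summed to genes with tximport and filtered with scater. Imputed log2 values were deposited by the authors after scran scaling and MAGIC, and base 2 is assumed because no base is given. The deposited metadata hold SC3 clusters, monocle states and the percent of reads on mitochondrial genes, computed by the authors with scater. Counts were summed per library and cluster, with at least 3 cells per sum, and rounded to whole numbers. The quasi-likelihood test of edgeR 4.0.16 (R 4.3.3) followed TMM scaling and filterByExpr, with Benjamini-Hochberg adjustment over all genes. Calls needed an adjusted p under 0.05 and an absolute log2 fold change over 0.5. The SE was derived from the fold change and the F statistic (size of the log2 fold change over the root of F). Log2 differences between clusters came from a fit with condition and cluster but without the library. That fit also held the responsive sums of E2 columns 12 and 14, which had no cluster 1 sum. Alternatives were DESeq2 1.42.0, limma-voom (limma 3.58.1), relative log expression factors, library totals, no filter, sums of at least 5 cells, thinning every cell to 20000 reads, k-means labels, a library block, and leaving out each library. Leaving out 1 cell was added after seeing the data. Genes were named by symbol from GRCm38 annotation, where 14135 of 14299 had one, and Mkl1 and Mkl2 were looked up as Mrtfa and Mrtfb. The code was tested on simulated data. The 10 genes and the lists were chosen with earlier results of these data known. All 10 were named, and from the wider list up to 5 called genes in each direction per comparison. The 3 genes most like each gene were found over cells by Pearson's r. No doublet caller was run, and the study scored capture sites for cell number by eye. No column of sample values was left without a sample.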

Additional observations from a re-analysis of the deposited data

Results flagged for a closer look

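In 7 of 38 groups of libraries, 1 library stood apart from the rest by Dixon's criterion. Its rate of about 1 in 20 by chance holds for normally distributed values. All flags but that of Actg1 were of the rare genes Acta2, Tagln and Myl9, whose levels are not of that kind. The count of flags therefore cannot be set against that rate. In control cluster 1 cells the library of column 6 had Tagln at 1135 CPM, where the next library had 54.9 CPM, and Acta2 at 177 CPM, where the next had 0.886 CPM, and both values came mostly from 1 of its 8 cluster 1 cells. In responsive E2 cells the library of column 15 had Acta2 at 27.9 CPM, from 1 cell, where the next had 0.906 CPM. The same library had Actg1 at 2755 CPM, where the next had 2148 CPM. In responsive E2 cells the library of column 19 had Tagln at 10.5 CPM, where the next had 4.18 CPM. In responsive control cells the library of column 4 had Myl9 at 20.8 CPM, where the next had 8.83 CPM. In control cluster 1 cells the library of column 8 had Myl9 at 1.47 CPM, from 1 cell, and the others had none.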

How the results depend on the processing

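Control and E2 libraries share no column number, so no paired analysis was possible because the conditions have no numbers in common. The clusters do share libraries, and with the library as a replicate block the test of the difference between clusters called 0 of 11398 genes by edgeR (902 at an unadjusted p under 0.05), against 21 without the block and 98 with DESeq2. Limma-voom called 13 there and thinned cells 10. DESeq2 called 234 genes in responsive cells, 52 in cluster 1 and 318 over all cells, where edgeR called 141, 7 and 177. In cluster 1, library totals gave 4 calls, no filter 1 and thinned cells 0 (330 at an unadjusted p under 0.05, on 3823 genes). Leaving out each library gave 1 to 9 calls in cluster 1, 15 to 44 for the difference between clusters and 1 to 3 listed genes called over all cells. Without the cell with most Tagln reads, 1 listed gene was called over all cells, Cald1, and Actb was at −0.50 (adjusted p = 0.00185 by edgeR). With cells thinned, 3 listed genes were past a log2 difference of 0.5 between clusters, against 5. In responsive cells the adjusted p of Actb stayed below 0.05 in all 10 settings and all 19 fits without 1 library, and no fit called it. The sign turned for genes near 0. With E2 in cluster 1, Actg1 was at −0.0216 with library totals and −0.0221 without the filter, and Cnn2 at 0.0225 with at least 5 cells per sum, and without 1 library the ranges were −0.0392 to 0.152 (Actg1), −0.458 to 0.0286 (Cnn2) and −0.049 to 0.231 (Tagln2). Over all cells Actg1 was at −0.0251 with library totals and ran from −0.0175 to 0.0839. In the difference between clusters, Cald1 was at 0.17 with DESeq2 and relative log expression factors, 0.00617 with library totals, 0.0234 with thinned cells and 0.0485 with at least 5 cells, and ran from −0.104 to 0.0431, and Actg1 ran from −0.059 to 0.161. Between clusters Tagln was at −0.34 with DESeq2 and −0.41 without the 1 cell, and ran from −0.38 to 2.37, the lowest without column 6. Over all cells Tagln was not called with limma-voom (−1.43, adjusted p = 0.619) or without the filter (−3.43, adjusted p = 0.0553), and it was called in 6 of 19 fits without 1 library, Actb in 13 and Cald1 in 14. The cause of these changes was not tested, apart from the 1 cell.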
